A study of Mus musculus with 6 samples.

Results

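The genes described here are 48 protein-coding genes of RNA polymerase I (Pol I) transcription and of the nucleolus, taken as a named list: 5 Pol I subunits, 6 Pol I initiation factors, 6 genes of ribosomal DNA (rDNA) chromatin and of the nucleolar scaffold, 8 proteins of small nucleolar ribonucleoproteins (snoRNPs), 17 factors of small ribosomal subunit formation and 6 factors of large ribosomal subunit assembly. They were followed in liver RNA-seq of 3 wild-type (WT) and 3 *Sirt7* knockout (KO) male mice, 24 months old and fasted for 16 h. The KO allele is carried in the whole body, the line had been backcrossed to C57BL/6J, and WT and *Sirt7* KO mice were littermates from crosses of heterozygotes, so every cell of a KO liver lacks the intact gene and the genotypes share strain, sex, age and fasting. All 48 genes were among the 54115 genes with a transcript in the deposited tables and all 48 passed the filter on low counts that left 12524 genes to test. Every member of the list was therefore measured in every liver, with 10 to 1305 reads per gene and liver.

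In the nucleolus, Pol I transcribes the repeated rDNA genes into a long precursor, which is cut, modified and folded on the small and large subunits while ribosomal proteins join them. The initiation factors bring Pol I to the rDNA promoter, the box C/D and box H/ACA snoRNPs guide ribose methylation and pseudouridylation of the precursor, and large assemblies such as the small subunit processome fold and cleave it. SIRT7 is a deacetylase concentrated in the nucleolus and is known as a partner of the Pol I machinery. The question put to these data was which of the mRNAs for this machinery differed between the livers of WT and *Sirt7* KO mice.

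Between 9994860 and 13424776 reads were assigned to transcripts per liver. Levels are given as reads scaled to a fixed library size (CPM) after TMM scaling, which aligns the libraries on the bulk of their genes, where a gene is compared between livers, and as TPM, which also corrects for length, where genes are compared with each other. *Sirt7* itself, the targeted gene, was at 55.2, 45.5 and 47.3 CPM in the WT livers and 28.6, 41.7 and 40.8 CPM in the *Sirt7* KO livers. The genotypes did not overlap, but the summed reads were not lost (log2 fold change -0.41, SE 0.18, 95% interval -0.82 to -0.0097, edgeR unadjusted p = 0.0458, adjusted p = 0.423), and with offsets for transcript length the log2 fold change turned to 0.80. The reads that Salmon gave to the full-length *Sirt7* isoform of 10 exons were 429, 381 and 408 in the WT livers and 124, 135 and 77.5 in the *Sirt7* KO livers. The full-length isoform separated the labelled genotypes far more widely than the gene total did. Shorter protein-coding isoforms of *Sirt7* went the other way. The isoform of 6 exons had 43.0, 0 and 65.3 reads in the WT livers and 83.5, 119 and 192 in the *Sirt7* KO livers. That of 4 exons and 427 bases had 2.12, 5.12 and 0 reads and 50.5, 54.1 and 93.3 reads. In whole liver, fewer cells of a type and less RNA per cell cannot be told apart, which holds for every level given here.

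Promoters of the members were read from a table of RefSeq promoters, in which 41 of the 48 genes were matched, with 51 promoters of 300 bases (250 before the start of transcription and 50 after it, build GRCm38.p6). *Utp6*, *Fbl*, *Rrp12*, *Wdr36*, *Tcof1*, *Npm1* and *Bop1* were not matched. The letters searched, on both strands, were CACGTG, the E-box word that MYC and related factors bind, CCGGAAG, a core word of ETS factors, and TATAAA, the TATA box word. CCGGAAG was present in 18 of the 51 promoters (35.3%), against 8.86% of the 32851 promoters of all genes and 11.6% of the 21263 promoters of protein-coding genes. CACGTG was present in 9 (17.6%), against 7.15% and 7.84%, and TATAAA in 2 (3.92%), against 13.6% and 12.6%. A match is a description of the letters and not a bound site. The 150 bases before the start are shown for 5 members with their words in capitals: *Polr1c* and *Nop2* have the CCGGAAG word, *Rrn3* and *Nop2* the CACGTG word, and *Polr1a* and *Ncl*, 2 of the members that results below turn on, have none in this stretch. *Rrn3* also has CCGGAAG words at -5 and 18 bases from the start, which the stretch does not hold whole.
Polr1c (chr17:46248046-46248195, minus strand): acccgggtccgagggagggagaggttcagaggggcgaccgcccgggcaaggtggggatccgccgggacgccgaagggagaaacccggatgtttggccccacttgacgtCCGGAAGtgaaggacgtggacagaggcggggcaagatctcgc
Nop2 (chr6:125131733-125131882, plus strand): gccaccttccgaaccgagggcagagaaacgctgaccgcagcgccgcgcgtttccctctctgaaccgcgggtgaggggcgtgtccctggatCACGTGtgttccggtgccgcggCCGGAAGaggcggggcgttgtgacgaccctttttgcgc
Rrn3 (chr16:13780549-13780698, plus strand): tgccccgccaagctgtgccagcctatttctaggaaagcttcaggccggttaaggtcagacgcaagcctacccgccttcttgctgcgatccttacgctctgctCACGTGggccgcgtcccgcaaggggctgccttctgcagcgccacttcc
Polr1a (chr6:71908903-71909052, plus strand): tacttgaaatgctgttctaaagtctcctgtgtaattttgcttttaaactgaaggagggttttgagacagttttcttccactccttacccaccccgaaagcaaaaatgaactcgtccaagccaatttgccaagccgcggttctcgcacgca
Ncl (chr1:86359456-86359605, minus strand): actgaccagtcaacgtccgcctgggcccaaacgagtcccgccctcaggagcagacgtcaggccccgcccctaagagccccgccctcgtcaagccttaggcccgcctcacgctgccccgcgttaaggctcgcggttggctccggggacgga
For *Heatr1*, one of the members that were higher in *Sirt7* KO livers, the CCGGAAG word starts 16 bases before the RefSeq start and is shown within 30 bases. In the GENCODE annotation used to sum the reads, *Heatr1* begins farther upstream, at 12395027, and 26 of these 30 bases are exon.
Heatr1 (chr13:12395348-12395377, plus strand): gtagtgagaagCCGGAAGttcctatgaggc
Across members, the median log2 fold change was -0.011 for the 17 genes with a CCGGAAG word and -0.10 for the 24 without, and -0.17 for the 9 genes with a CACGTG word and -0.074 for the 32 without.

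In WT liver the members spanned a wide range of levels per length, from 74.3 TPM for *Npm1* to 0.523 TPM for *Taf1c*, with a median of 5.88 TPM. *Npm1*, which encodes the abundant nucleolar histone chaperone nucleophosmin, was at 74.3 ± 13.0 TPM (SD, n = 3). *Nop10*, a small core protein of the box H/ACA snoRNP, was at 67.0 ± 8.49 TPM and *Polr1d*, a subunit shared by Pol I and Pol III, at 45.5 ± 8.17 TPM. The livers of *Npm1* and *Nop10* overlapped, so their order was within the spread, as was that of *Nhp2* (37.0 ± 4.58 TPM) and *Polr1d*. Among the Pol I subunits the 2 that are shared with Pol III were the highest per length, since *Polr1c* was at 17.1 ± 2.63 TPM while *Polr1a*, *Polr1b* and *Polr1e*, which belong to Pol I alone, were at 2.60 ± 0.722 TPM, 2.84 ± 0.399 TPM and 3.45 ± 1.08 TPM. Of the initiation factors, *Ubtf* was the highest (10 ± 1.35 TPM), and the other members of that group lay at or below the 7.60 TPM of *Taf1d*.

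**Figure D1:**
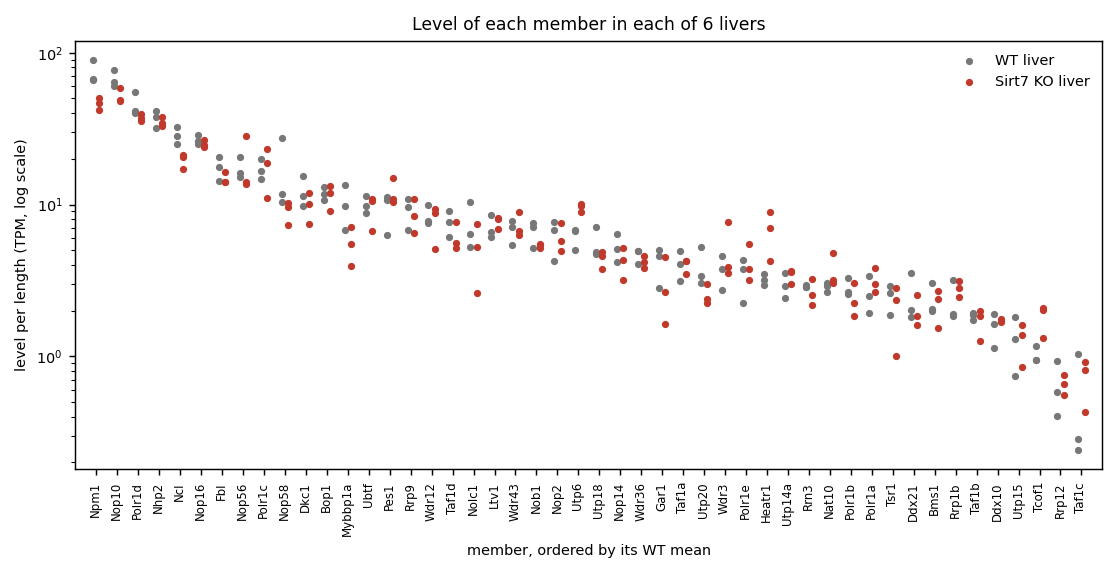
Level per length of each of the 48 members in each of 6 livers (TPM, log axis; grey points WT, red points *Sirt7* KO), ordered by the mean of the WT livers. *Npm1*, *Nop10* and *Polr1d* lie at the top and *Taf1c*, with a WT mean of 0.523 TPM, at the bottom, and for most members the points of both genotypes lie among each other.

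None of the 48 genes passed the threshold between genotypes (edgeR quasi-likelihood test, Benjamini-Hochberg adjusted p under 0.05 and a fold change over 1.5). Of all tested genes 0.00798% passed it, which is 1 gene, so the count of 0 was read against almost no calls at all. The smallest adjusted p of a member was 0.213 (*Tcof1*). DESeq2 with offsets for transcript length, which called 1.87% of its genes, also called no member, the smallest adjusted p there being 0.0565 (*Heatr1*). At an unadjusted edgeR p under 0.05 there were 5 members (10.4%). *Tcof1*, *Heatr1* and *Polr1a* were higher in *Sirt7* KO livers, a direction in which 6.54% of all tested genes passed, and *Ncl* and *Npm1* were lower, a direction in which 4.78% passed. Every *Sirt7* KO liver lay above every WT liver for 4 members (*Tcof1*, *Heatr1*, *Polr1a* and *Utp6*; 8.74% of all tested genes) and below for 4 (*Ncl*, *Npm1*, *Polr1d* and *Taf1d*; 8.09%). These shares of the list, 8.33% in each direction, are close to those of the whole table. With upper quartile or total count scaling *Polr1a* overlapped, and with length offsets *Polr1a* and *Taf1d* did. Other members lost their overlap. With length offsets *Nat10* was higher and *Nop58* and *Utp20* were lower without overlap. *Utp18* was lower without overlap with total counts and with length offsets in edgeR.

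The sizes were small, much as over all tested genes. The median log2 fold change of the members was -0.086, against -0.0061 over all tested genes. The lower and upper quartiles were -0.23 and 0.17 for the members and -0.23 and 0.24 for all tested genes. Of the 48 members 35 lay within 0.3 of 0, a count that was not made over all tested genes. For 40 members (83.3%) the whole 95% interval lay within a 2-fold change in either direction, which was the case for 59.4% of all tested genes, and for 12 members (25%) it lay within 1.5-fold, against 24.5%. Scaling by total counts alone moved the median of all tested genes to -0.11 and that of the members to -0.19, a distance between them of -0.078 after it and of -0.080 before it. The summed level of the list was 974, 909 and 875 CPM in the WT livers and 841, 827 and 829 CPM in the *Sirt7* KO livers. Without *Ncl* and *Npm1*, the 2 largest contributors, the sums were 768, 724 and 696 CPM and 691, 697 and 704 CPM, and the genotypes overlapped.

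**Figure D2:**
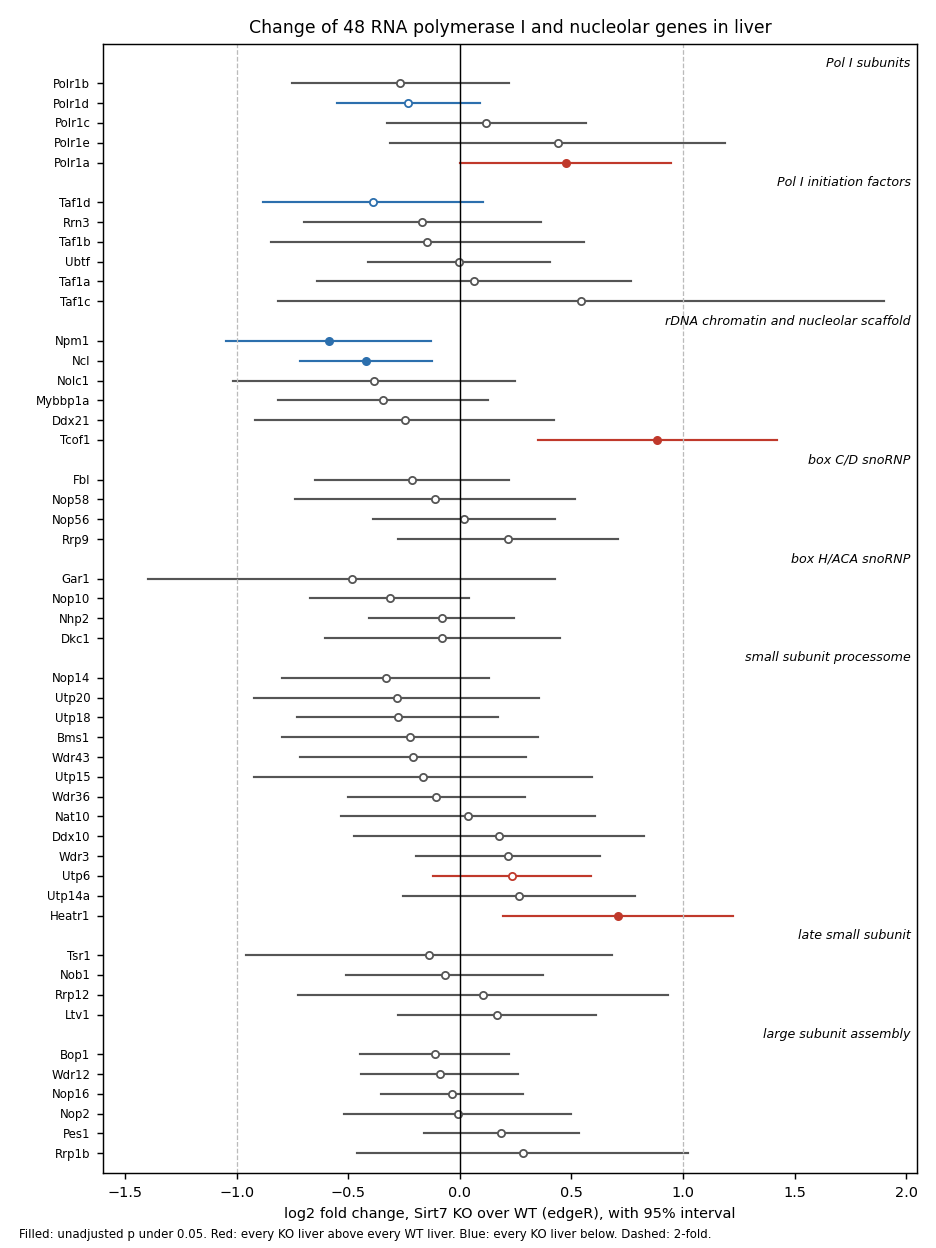
Log2 fold change of each member (*Sirt7* KO over WT, edgeR) with its 95% interval, grouped by role. Filled points have an unadjusted p under 0.05, red and blue mark members whose *Sirt7* KO livers all lay above or below the WT livers, and the dashed lines mark a 2-fold change, which the intervals of 8 members cross, among them *Npm1*, *Tcof1* and *Heatr1*.

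Of the 5 Pol I subunits, *Polr1a* (chr6:71909053-71984935, plus strand, GRCm38), which encodes the largest, catalytic subunit, was at 11.01, 8.17 and 9.76 CPM in the WT livers and 15.2, 11.2 and 13.8 CPM in the *Sirt7* KO livers. All 3 *Sirt7* KO livers were above the WT livers, by as little as 0.22 CPM between the nearest livers (log2 fold change 0.47, SE 0.21, 95% interval 0.0025 to 0.95, edgeR unadjusted p = 0.0490, adjusted p = 0.436). Of 15 other fits, 4 kept an unadjusted p under 0.05. *Polr1b*, the second large subunit, was at 13.8, 12.1 and 10.6 CPM in the WT livers and 11.9, 10.2 and 8.19 CPM in the *Sirt7* KO livers and went the other way with overlap (log2 fold change -0.27, SE 0.22, 95% interval -0.75 to 0.22). *Polr1c* was at 20.8, 16.1 and 16.9 CPM in the WT livers and 15.1, 21.5 and 21.96 CPM in the *Sirt7* KO livers (log2 fold change 0.12, SE 0.20, 95% interval -0.33 to 0.56). Its partner in the shared subcomplex, *Polr1d*, was at 56.1, 47.7 and 44.5 CPM in the WT livers and 42.1, 40.9 and 43.3 CPM in the *Sirt7* KO livers. The *Sirt7* KO livers of *Polr1d* were all lower and close to each other (log2 fold change -0.23, SE 0.14, 95% interval -0.55 to 0.089, edgeR unadjusted p = 0.137, adjusted p = 0.588). *Polr1e*, which encodes the PAF53 subunit, a protein that SIRT7 is known to deacetylate, was at 4.23, 5.26 and 2.88 CPM in the WT livers and 5.13, 7.21 and 4.43 CPM in the *Sirt7* KO livers. Its *Sirt7* KO mean was the higher, with overlap and a wide interval (log2 fold change 0.44, SE 0.33, 95% interval -0.31 to 1.19). The summed level of these 5 subunits was 106, 89.4 and 84.6 CPM in WT and 89.5, 91.0 and 91.6 CPM in *Sirt7* KO livers, so no common direction was seen among them.

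The initiation factors, too few to be set apart from the 11.3% of all tested genes, gave no gene with an unadjusted p under 0.05. *Ubtf*, which encodes the factor UBF that keeps rDNA open and is bound by SIRT7, was at 34.0, 35.8 and 30.03 CPM in the WT livers and 25.6, 38.9 and 35.0 CPM in the *Sirt7* KO livers. Its mean was level between genotypes (log2 fold change -0.0051, SE 0.18, 95% interval -0.41 to 0.40). *Rrn3*, which encodes the growth-regulated factor that makes Pol I competent to initiate, was at 10.3, 10.2 and 10.8 CPM in the WT livers and 7.97, 7.63 and 12.2 CPM in the *Sirt7* KO livers (log2 fold change -0.17, SE 0.23, 95% interval -0.70 to 0.36). The third *Sirt7* KO liver was the highest of the 6 for *Rrn3* while the others were the lowest. The 4 TAF1 genes encode subunits of the selectivity factor that binds the rDNA promoter. *Taf1a* was at 3.56, 6.80 and 4.88 CPM in the WT livers and 5.86, 5.62 and 4.43 CPM in the *Sirt7* KO livers and *Taf1b* at 3.64, 3.63 and 3.62 CPM in the WT livers and 2.75, 4.03 and 3.08 CPM in the *Sirt7* KO livers, with overlap for both. Their log2 fold changes were 0.064 (95% interval -0.64 to 0.77) and -0.15 (95% interval -0.85 to 0.56). *Taf1d* was at 10.8, 10.4 and 9.76 CPM in the WT livers and 8.06, 6.25 and 9.34 CPM in the *Sirt7* KO livers, without overlap (log2 fold change -0.39, SE 0.22, 95% interval -0.88 to 0.11, edgeR unadjusted p = 0.109, adjusted p = 0.557). *Taf1c*, the least abundant member, was at 3.64, 0.907 and 1.04 CPM in the WT livers and 3.20, 3.39 and 1.54 CPM in the *Sirt7* KO livers. With 10 reads in the second WT liver its interval was the widest of the list (log2 fold change 0.54, SE 0.60, 95% interval -0.82 to 1.90).

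The rDNA chromatin and scaffold group held *Tcof1* and *Ncl*, the 2 members with the lowest unadjusted p values. *Ncl* (chr1:86344719-86359400, minus strand, GRCm38), which encodes nucleolin, the major nucleolar RNA-binding protein, was at 110.5, 109 and 96.0 CPM in the WT livers and 76.7, 78.5 and 80.3 CPM in the *Sirt7* KO livers. The *Sirt7* KO livers were all lower, at a mean of 0.747 times the WT level by the fit (log2 fold change -0.42, SE 0.13, 95% interval -0.72 to -0.12, edgeR unadjusted p = 0.0108, adjusted p = 0.272). Its unadjusted p was under 0.05 in all 15 other fits. *Npm1* (chr11:33152287-33163206, minus strand) was at 95.8, 75.8 and 82.3 CPM in the WT livers and 73.4, 51.0 and 44.5 CPM in the *Sirt7* KO livers. Its *Sirt7* KO livers were also all lower (log2 fold change -0.59, SE 0.20, 95% interval -1.05 to -0.13, edgeR unadjusted p = 0.0177, adjusted p = 0.326), with the first *Sirt7* KO liver 2.41 CPM below the lowest WT liver. Without that liver the log2 fold change of *Npm1* was -0.82 and it passed the threshold (adjusted p = 0.0465, edgeR), in a fit that called 252 genes in all, while its unadjusted p rose above 0.05 when the first WT, the second *Sirt7* KO or the third *Sirt7* KO liver was left out.

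*Tcof1*, which encodes treacle, the scaffold that ties UBF and Pol I to rDNA, went the other way. It was at 4.49, 5.17 and 4.66 CPM in the WT livers and 7.33, 10.4 and 8.77 CPM in the *Sirt7* KO livers. The *Sirt7* KO livers were all higher, the largest change of the list (log2 fold change 0.88, SE 0.24, 95% interval 0.35 to 1.42, edgeR unadjusted p = 0.00463, adjusted p = 0.213), on 53 to 98 reads per liver, and its unadjusted p was under 0.05 in all 15 other fits. The other 3 scaffold genes overlapped. *Nolc1*, which encodes a snoRNP chaperone, was at 26.3, 15.1 and 17.4 CPM in the WT livers and 10.99, 13.8 and 20.2 CPM in the *Sirt7* KO livers. *Ddx21*, an RNA helicase gene, was at 17.6, 7.71 and 10.9 CPM in the WT livers and 9.25, 9.96 and 11.4 CPM in the *Sirt7* KO livers. *Mybbp1a*, whose product binds SIRT7 and MYB, was at 27.9, 34.3 and 21.8 CPM in the WT livers and 20.97, 18.6 and 26.4 CPM in the *Sirt7* KO livers. For each of these 3 genes a WT liver was the highest of the 6. Their log2 fold changes were -0.39 (95% interval -1.02 to 0.25), -0.25 (95% interval -0.92 to 0.42) and -0.34 (95% interval -0.81 to 0.12). The summed level of the group was 283, 247 and 233 CPM in WT and 199, 182 and 192 CPM in *Sirt7* KO livers, most of it *Ncl* and *Npm1*.

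**Figure D3:**
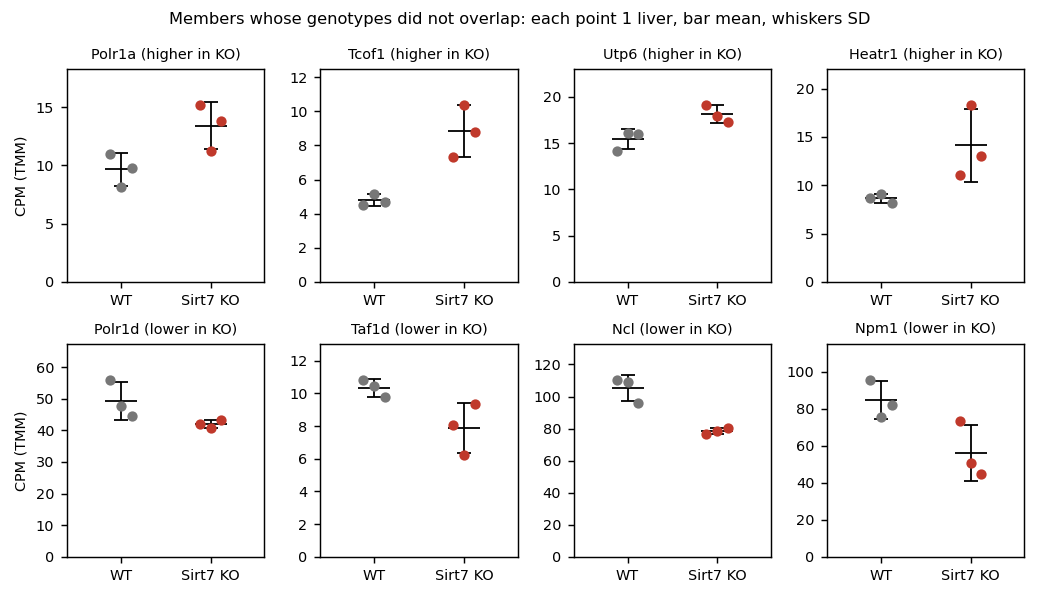
CPM of the 8 members whose genotypes did not overlap, 1 panel per gene with its axis from 0 (grey points WT livers, red points *Sirt7* KO livers, bars means, whiskers SD, n = 3 each). The *Sirt7* KO livers of *Ncl* lie from 76.7 to 80.3 CPM, and for *Polr1a*, *Polr1d* and *Taf1d* the nearest livers of both genotypes almost touch.

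The snoRNP proteins showed no member past an unadjusted p of 0.05 and none without overlap, though with length offsets *Nop58* was lower without overlap. Over all tested genes 11.3% and 16.8% had these in either direction, and the group is too small to be told apart from those shares. *Fbl*, which encodes fibrillarin, the methyltransferase of box C/D snoRNPs, was at 21, 20.3 and 16.1 CPM in the WT livers and 19.9, 15.3 and 14.3 CPM in the *Sirt7* KO livers (log2 fold change -0.21, SE 0.19, 95% interval -0.65 to 0.22). *Nop56* and *Nop58*, the paired core proteins of the same particle, had log2 fold changes of 0.017 (95% interval -0.39 to 0.42) and -0.11 (95% interval -0.74 to 0.51). *Rrp9*, a protein of the U3 snoRNP that SIRT7 is known to deacetylate, was at 11.7, 12.3 and 10.5 CPM in the WT livers and 10.3, 13.0 and 16.7 CPM in the *Sirt7* KO livers (log2 fold change 0.21, SE 0.22, 95% interval -0.28 to 0.71). Of the 4 box H/ACA proteins all estimates were below 0. *Nop10* was at 73.2, 69.3 and 62.7 CPM in the WT livers and 65.2, 50.5 and 49.2 CPM in the *Sirt7* KO livers. Only its first *Sirt7* KO liver lay among the WT livers (log2 fold change -0.31, SE 0.16, 95% interval -0.67 to 0.043, edgeR unadjusted p = 0.0778, adjusted p = 0.501). *Gar1* was at 3.22, 2.90 and 3.62 CPM in the WT livers and 3.48, 2.01 and 1.45 CPM in the *Sirt7* KO livers, with the estimate farthest below 0 after *Npm1* and a wide interval (log2 fold change -0.49, SE 0.40, 95% interval -1.40 to 0.43). *Dkc1*, which encodes the pseudouridine synthase dyskerin, and *Nhp2* were near 0, at -0.08 (95% interval -0.61 to 0.45) and -0.082 (95% interval -0.41 to 0.24).

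Of the 13 genes of the small subunit processome, 6 had estimates above 0 and 7 below. *Heatr1* (chr13:12395027-12440289, plus strand), which encodes a large scaffold needed both for early processing and for Pol I transcription, was at 8.64, 9.07 and 8.21 CPM in the WT livers and 11.1, 18.3 and 13.0 CPM in the *Sirt7* KO livers. The *Sirt7* KO livers were all higher, with the second far above the other two (log2 fold change 0.71, SE 0.23, 95% interval 0.19 to 1.23, edgeR unadjusted p = 0.0128, adjusted p = 0.288). Its log2 fold change was 0.48 without the second *Sirt7* KO liver, where the unadjusted edgeR p was 0.0607, and 1.09 with offsets for transcript length. *Utp6* was at 14.1, 16.1 and 16.0 CPM in the WT livers and 19.1, 17.9 and 17.2 CPM in the *Sirt7* KO livers. Its *Sirt7* KO livers were higher without overlap (log2 fold change 0.23, SE 0.16, 95% interval -0.12 to 0.59, edgeR unadjusted p = 0.169, adjusted p = 0.624), and with offsets for transcript length the log2 fold change was 0.70. The other 11 genes ranged from -0.33 (95% interval -0.80 to 0.13) for *Nop14* to 0.27 (95% interval -0.25 to 0.78) for *Utp14a*, all with overlapping genotypes. Under other settings *Nat10*, *Utp18* and *Utp20* did not overlap. *Nat10*, which encodes the acetyltransferase of small subunit rRNA, was at 0.037 (95% interval -0.53 to 0.61).

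Genes of later steps of subunit formation had no gene without overlap, where 16.8% of all tested genes had none in either direction. These groups are too small to be told apart from that share. The 4 genes of late small subunit maturation (*Tsr1*, *Ltv1*, *Nob1* and *Rrp12*) summed to 34.6, 35.3 and 34.9 CPM in WT and 37.8, 30.5 and 38.4 CPM in *Sirt7* KO livers. *Nob1*, which encodes the nuclease that makes the final cut of the small subunit rRNA, was at -0.069 (95% interval -0.51 to 0.37) on the log2 scale. The 6 genes of large subunit assembly summed to 138, 133 and 134 CPM in WT and 136, 135 and 133 CPM in *Sirt7* KO livers. Within them *Pes1*, *Bop1* and *Wdr12*, whose products form the PeBoW complex, were at 0.19 (95% interval -0.16 to 0.53), -0.11 (95% interval -0.45 to 0.22) and -0.09 (95% interval -0.44 to 0.26). For 5 of the 6 genes of this group the whole interval lay within a 1.5-fold change, *Rrp1b* being the exception at 0.28 (95% interval -0.46 to 1.02).

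The 7 members whose products are known partners or substrates of SIRT7 (*Polr1e*, *Ubtf*, *Mybbp1a*, *Ddx21*, *Fbl*, *Npm1* and *Rrp9*) held 1 gene with an unadjusted edgeR p under 0.05, *Npm1*, and 1 without overlap, the same gene, where 11.3% and 16.8% of all tested genes had these in either direction. Their median log2 fold change was -0.21, with 2 estimates above 0 and 5 below. Of the 7 intervals, 5 lay within a 2-fold change. Their summed level was 212, 192 and 175 CPM in WT and 165, 154 and 153 CPM in *Sirt7* KO livers, of which *Npm1* alone was 95.8, 75.8 and 82.3 CPM and 73.4, 51.0 and 44.5 CPM.

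Across livers the members did not move as a block. The median deviation of the 48 genes from their own mean over 6 livers was 0.078, 0.056 and -0.035 log2 units in the WT livers and 0.041, -0.040 and -0.011 in the *Sirt7* KO livers, against 0.025, 0.00037 and 0.012 and 0.013, 0.0042 and 0.010 over all tested genes. The spread within genotypes, as the biological coefficient of variation, had a median of 20.5% over the members and 23.0% over all tested genes. Across the 48 members the log2 fold change had a Spearman rho of 0.081 with transcript length and of -0.27 with level, and across all tested genes of -0.00032 and 0.049, both as descriptions over genes that share the same 6 livers.

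**Figure D4:**
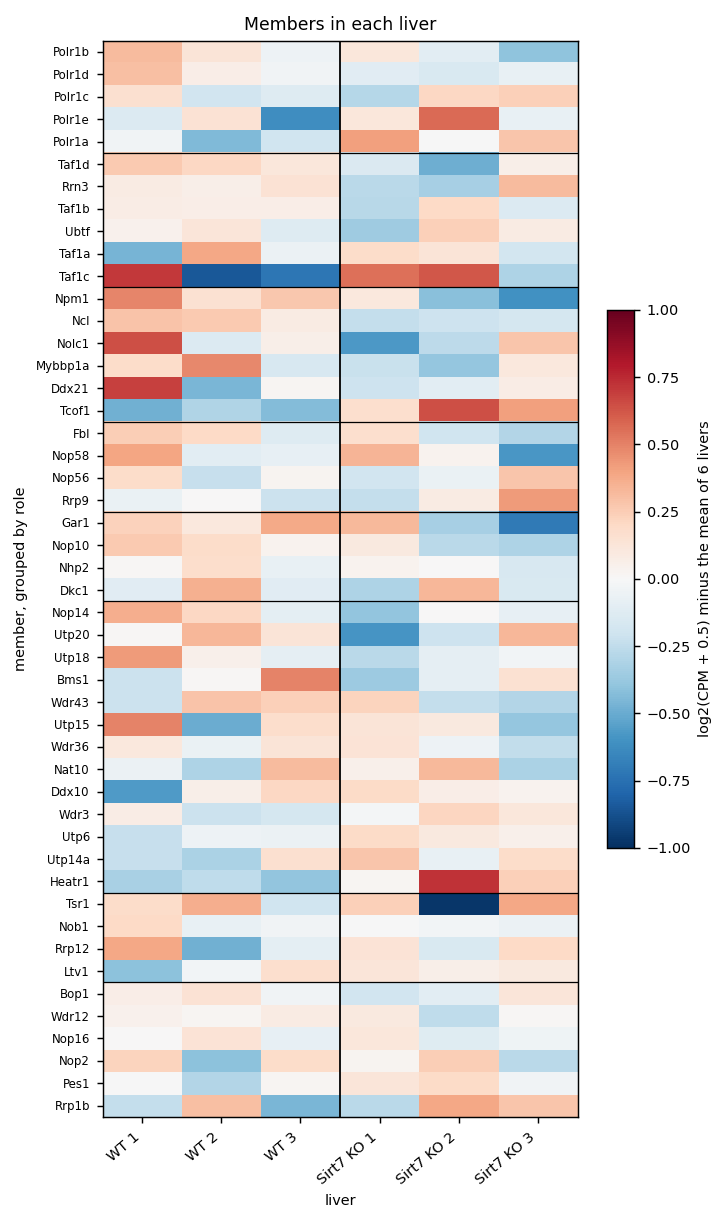
Deviation of each member in each liver from its mean over 6 livers (log2(CPM + 0.5), colour scale from -1 to 1), grouped by role, with WT livers left of the black line. *Ncl* changes colour from red to blue across the line, *Tcof1* and *Heatr1* from blue to red, and no role does so as a whole. *Npm1* is red in the WT livers and in the *Sirt7* KO liver at 73.4 CPM, and blue in the *Sirt7* KO livers at 51.0 and 44.5 CPM.

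The deposited tables list transcripts, so the annotated isoforms behind these sums could be seen. Over the 35 members with a mean of at least 100 reads, 18.2% ± 0.626 of the reads in WT and 18.3% ± 2.80 in *Sirt7* KO livers (SD, n = 3 each) were given to isoforms not annotated as protein coding (retained introns, nonsense-mediated decay targets and processed transcripts). For 17 of the 35 the share was under 5% and for *Ncl*, *Polr1a*, *Heatr1* and *Taf1d* it was over 50%. *Ncl* reads went mostly to a retained-intron isoform of 12 exons and 3072 bases (ENSMUST00000185676.6). It took 88.5, 88.2 and 76.0 CPM in the WT livers and 52.8, 63.6 and 63.6 CPM in the *Sirt7* KO livers, without overlap. The protein-coding *Ncl* isoform of 14 exons and 8202 bases (ENSMUST00000027438.7) took 21.3, 19.98 and 19.7 CPM and 23.7, 14.8 and 16.4 CPM, with overlap. The lower *Ncl* level of *Sirt7* KO livers thus lay mainly on reads assigned to the retained-intron isoform, which held most *Ncl* reads in both genotypes. Isoforms not annotated as protein coding took 80.8%, 81.6% and 79.5% of *Ncl* reads in the WT livers. In the *Sirt7* KO livers they took 69.1%, 81.1% and 79.6%, with overlap, so only the first *Sirt7* KO liver had a lower share. Whether reads assigned to the retained-intron isoform came from RNA that kept the intron was not tested. *Ncl* and *Taf1d* are known to carry snoRNAs in their introns.

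*Npm1* reads were spread over 4 protein-coding isoforms, of which ENSMUST00000101375.4 was given 22.8, 25.9 and 16.7 CPM in WT and 0, 19.2 and 15.1 CPM in *Sirt7* KO livers. The first *Sirt7* KO liver, listed at 0 for it, had the highest level of all livers for the 11-exon isoform (ENSMUST00000075641.9, 39.2 CPM). *Heatr1* had its full isoform of 45 exons (ENSMUST00000059270.9) at 3.37, 3.43 and 3.88 CPM in WT and 5.11, 5.04 and 4.34 CPM in *Sirt7* KO livers, without overlap. Its nonsense-mediated decay isoform of 17 exons (ENSMUST00000222091.1) was at 5.06, 4.93 and 3.74 CPM and 5.07, 11.3 and 7.16 CPM, the second *Sirt7* KO liver standing far above the rest. *Utp6*, whose change grew with length offsets as that of *Heatr1* did, had its 20-exon isoform (ENSMUST00000108241.7, 2308 bases) at 0, 1.67 and 1.18 CPM in WT and 4.01, 5.07 and 7.26 CPM in *Sirt7* KO livers, and its 19-exon isoform (ENSMUST00000043152.5, 3877 bases) at 12.5, 12.8 and 14.1 CPM and 12.2, 10.7 and 7.37 CPM. Both isoforms of *Utp6* are protein coding, and their genotypes did not overlap, in opposite directions. *Tcof1* had its 25-exon isoform (ENSMUST00000176630.7) at 3.96, 0 and 2.58 CPM in WT and 7.33, 9.87 and 7.02 CPM in *Sirt7* KO livers, without overlap. The 26-exon coding isoform of *Tcof1* (ENSMUST00000175934.7) went the other way with overlap, at 0.529, 5.17 and 1.96 CPM and 0, 0 and 1.43 CPM. In the second WT liver all *Tcof1* reads were given to the 26-exon isoform. Isoform values are Salmon's estimates on few reads and were given no test.

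**Figure D5:**
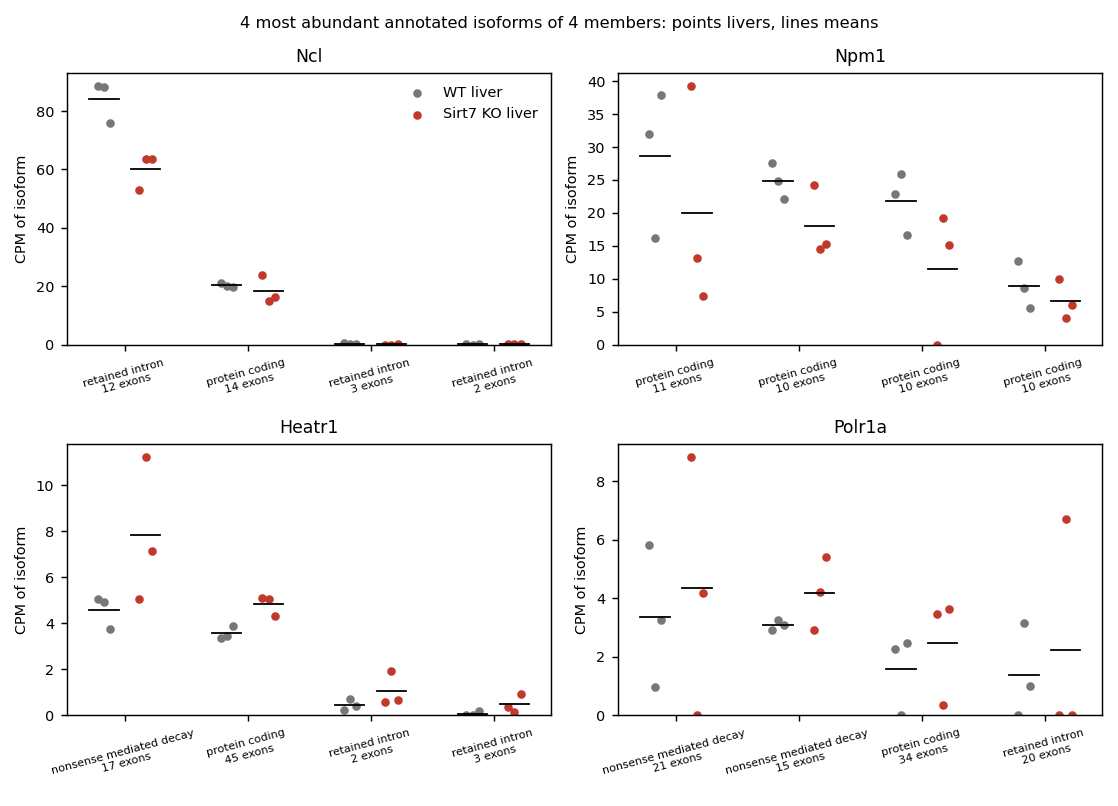
CPM of the 4 most abundant annotated isoforms of *Ncl*, *Npm1*, *Heatr1* and *Polr1a*, labelled by GENCODE transcript type and number of exons (grey points WT livers, red points *Sirt7* KO livers, lines means). The retained-intron isoform of *Ncl* lies between 76.0 and 88.5 CPM in WT and between 52.8 and 63.6 CPM in *Sirt7* KO livers, while the isoforms of *Polr1a* scatter widely between livers of 1 genotype.

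Some members share sequence with other genes, which can split reads. Of the 31-base words of their transcripts, 32.4% were also present in other genes for *Pes1*, 29.2% for *Npm1*, 22.4% for *Nop56*, 20.7% for *Fbl*, 15.3% for *Taf1d*, 11.7% for *Wdr12*, 11.6% for *Polr1d* and 10.2% for *Taf1b*, and 38 of the 48 members shared under 5%. The gene that shared most words with *Npm1*, *Gm9118*, was given 1.23, 0 and 0 reads in the WT livers and 1.32, 2.32 and 22.1 in the *Sirt7* KO livers, small beside the *Npm1* reads. Words of *Npm1* were present in 178 other genes, and of these only the reads of *Gm9118* were counted. The values of these 8 genes carry that uncertainty.

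Beyond the members, lists of the same and neighbouring machinery were counted in the same fit. None of their genes passed the threshold. The other 8 Pol I subunits, most of them shared with Pol II and Pol III, held 1 gene with an unadjusted p under 0.05: *Polr2h*, a subunit of all 3 polymerases, was at 10.2, 10.98 and 10.4 CPM in the WT livers and 7.78, 6.57 and 6.94 CPM in the *Sirt7* KO livers (log2 fold change -0.57, SE 0.20, 95% interval -1.01 to -0.12, edgeR unadjusted p = 0.0182, adjusted p = 0.330). Of these 8 genes 7 had estimates below 0 and 1 above, the lowest, of a gene other than *Polr2h*, at -0.63. Lower without overlap were 2 of them, *Polr2h* included. Of the 7 subunits specific to Pol II, *Polr2i* was lower, at 30.4, 28.5 and 25.8 CPM in the WT livers and 21.2, 17.2 and 19.1 CPM in the *Sirt7* KO livers (log2 fold change -0.56, SE 0.15, 95% interval -0.90 to -0.21, edgeR unadjusted p = 0.00538, adjusted p = 0.222). None of the 11 subunits specific to Pol III passed an unadjusted p of 0.05, which 11.3% of all tested genes did, but 2 were higher in *Sirt7* KO livers without overlap. The medians of the log2 fold changes were 0.12 for the 5 Pol I subunits among the members, -0.13 for the other 8, -0.017 for Pol II and 0.072 for Pol III.

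Of 36 further small subunit factors (median log2 fold change -0.059), 3 were higher and 1 lower without overlap. None of the 36 had an unadjusted edgeR p under 0.05, where 11.3% of all tested genes did. Of 45 further large subunit factors the gene that did was *Gnl3*, which encodes nucleostemin, at 35.6, 27.3 and 30.3 CPM in the WT livers and 22.3, 22.1 and 25.6 CPM in the *Sirt7* KO livers (log2 fold change -0.41, SE 0.16, 95% interval -0.77 to -0.057, edgeR unadjusted p = 0.0277, adjusted p = 0.364). Of the 13 tested genes of the RNA exosome, which trims rRNA precursors, *Exosc9* was higher, at 7.62, 6.35 and 10.1 CPM in the WT livers and 9.98, 15.4 and 13.0 CPM in the *Sirt7* KO livers, with overlap (log2 fold change 0.66, SE 0.25, 95% interval 0.093 to 1.24, edgeR unadjusted p = 0.0274, adjusted p = 0.364). Of 16 regulators of rDNA transcription only *Sirt7*, the targeted gene, had an unadjusted edgeR p under 0.05, and it did not pass the threshold. Among 7 tested noncoding snoRNA host genes, the median log2 fold change was -0.44 and *Snhg1* had an unadjusted p under 0.05, at 4.66, 2.81 and 4.66 CPM in the WT livers and 2.01, 2.12 and 2.70 CPM in the *Sirt7* KO livers (log2 fold change -0.83, SE 0.35, 95% interval -1.63 to -0.028, edgeR unadjusted p = 0.0439, adjusted p = 0.418). The spread of these hosts between livers was wide, with a median biological coefficient of variation of 31.2%, against 20.5% for the members. Of 12 proliferation genes 1 passed the filter, and their sum was 4.72 to 5.59 CPM in WT and 4.66 to 13.5 CPM in *Sirt7* KO livers.

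Cell type markers were counted beside these results. The summed level of 8 hepatocyte markers was 50166 to 55709 CPM in WT and 50728 to 64074 CPM in *Sirt7* KO livers. For 8 Kupffer cell markers it was 58.3 to 169 CPM and 55.9 to 154 CPM, for 8 endothelial markers 107 to 140.1 CPM and 119 to 148 CPM, for 8 stellate cell markers 254 to 325 CPM and 199 to 316 CPM, for 6 cholangiocyte markers 47.3 to 72.7 CPM and 53.4 to 71.0 CPM, and for 8 lymphocyte markers 7.53 to 10.7 CPM and 4.13 to 8.33 CPM. All of these sums overlapped between genotypes, and no marker was at 0 in every liver. Of the 46 markers 39 were tested (4 of 6 for cholangiocytes, 3 of 8 for lymphocytes), and none of those tested had an unadjusted edgeR p under 0.05. Of single markers, 2 did not overlap: *Apoa1* was at 11898, 12569 and 11564 CPM in WT and 14608, 16516 and 16237 CPM in *Sirt7* KO livers, and *Krt19* at 0.423, 1.09 and 0.592 CPM and 1.10, 1.59 and 1.54 CPM. The Kupffer cell marker *Marco* was at 1.19, 3.27 and 42.8 CPM in WT and 3.11, 4.34 and 1.16 CPM in *Sirt7* KO livers, with a log2 fold change of -2.47 and 1 WT liver above the other livers. These 3 markers were singled out after their values were seen, and their lists did not share their directions. Of the 8 Kupffer cell markers 6 had estimates above 0 and 2 below (median log2 fold change 0.20). Hepatocyte markers were split 4 above and 4 below 0, and the 4 tested cholangiocyte markers 2 and 2. The nuclear RNAs *Neat1* and *Malat1* were scaled to total reads only, without TMM factors. *Neat1* was at 1426, 771 and 582 CPM in WT and 406, 384 and 486 CPM in *Sirt7* KO livers. It so moved in the direction of *Ncl* and *Npm1* without overlap, while *Malat1* ranged from 165 to 492 CPM with overlap. The part of *Neat1* and of these markers in the results was not tested.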

How the data were processed

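RNA-seq was done on livers of 3 WT and 3 *Sirt7* KO mice, in 1 library per liver, made from 1 ng of total RNA by a SMART-seq method. The authors trimmed reads with Trim Galore 0.6.5 and quantified transcripts with Salmon 1.2.1; the deposited tables give, per the file headers, estimated counts (NumReads, which need not be whole) and TPM for 140992 transcripts, on GRCm38 per the labels. The TPM values deposited per transcript were used for levels per length only, as sums per gene. With amplified libraries and no molecular identifiers, reads are not independent molecules.

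Transcripts were joined to genes by GENCODE M21, 139172 by the same version, 619 by another version and 1201 without a gene (0.303% to 0.492% of reads, left out). Estimated counts were summed per gene and rounded. Genes were kept by edgeR's filterByExpr (minimum count 10) and tested with edgeR 4.0.16 (R 4.3.3), TMM factors and the quasi-likelihood test between genotypes, with Benjamini-Hochberg adjustment over all 12524 genes and a threshold of adjusted p under 0.05 with a fold change over 1.5. An exact two-sided permutation test of 3 against 3 livers cannot go below p = 0.1. Alternatives were RLE, upper quartile and total count scaling, no filter, a mean of at least 50 counts, transcript length offsets, DESeq2 1.42.0 with and without them, the replicate number as a block and leaving out each liver. Counts of livers of 1 genotype differed beyond counting noise (chi-square per gene of at least 16.9), and each liver was counted as 1 sample, as labelled. The overall biological coefficient of variation was 26.4%.

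Genes named with values were *Sirt7*, the Pol I subunits and initiation factors, the SIRT7 partner genes, members with an unadjusted p under 0.05 or without overlap, the 3 largest and 3 smallest changes, the 3 highest levels per length, and from each further list up to 2 genes with the smallest unadjusted p under 0.05; others are given by their estimates alone, some of them picked for their role. The members and lists were chosen with earlier results of these data known. *Snhg4* was not matched. Sequences are from RefSeq (GRCm38.p6).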

Additional observations from a re-analysis of the deposited data

How the results depend on the processing

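Of 805 log2 fold changes of 54 named genes or members under other settings, 759 kept their sign and their side of the threshold, 45 changed sign (20 genes, 19 of them members) and 1, *Npm1*, passed the threshold (-0.82 without the first *Sirt7* KO liver). The causes were not tested. Whether the replicate numbers pair the livers is not given by the labels. The deviations of same-numbered livers correlated at 0.065, 0.080 and -0.044, and those of differently numbered livers at -0.10 to 0.049. Deviations from means of 3 livers cannot decide on pairing. With the replicate number as a block 41 genes were called in all and no member. Genes called in all numbered 1, and 2 with total counts, 633 without a filter, 2 with edgeR and length offsets, 258 and 242 with DESeq2 without and with length offsets, and 0 to 252 with a liver left out. Members called were 0 to 1 with a liver left out. Members lower at an unadjusted p under 0.05 numbered 4 with DESeq2 and length offsets and 1 to 3 with a liver left out. Members without overlap numbered 3 higher with upper quartile or total count scaling and 5 lower with total counts (4 each in the report), and 5 to 7 (higher) and 5 to 10 (lower) with a liver left out, where 2 livers stand against 3 and the shares of all genes also rose, to between 12.1% and 18.3% (higher) and between 11.6% and 18.1% (lower); the count of 10 came without the third WT or the first *Sirt7* KO liver, that of 7 without the latter. With length offsets, 6 members were lower without overlap in edgeR and 5 in DESeq2, and 4 were higher in each. The median log2 fold change of the members was -0.19 with total counts and -0.10 to -0.034 with a liver left out. With total counts, log2 fold changes turned to -0.0023 (*Polr1c*), -0.026 (*Taf1a*), -0.10 (*Nop56*), -0.072 (*Nat10*) and -0.022 (*Rrp12*). *Ubtf* turned to 0.0045 without a filter and to 0.0037 with DESeq2 without length offsets. With length offsets they turned in edgeR and DESeq2 to -0.046 and -0.035 (*Rrp9*), 0.068 and 0.078 (*Utp15*), 0.17 and 0.17 (*Wdr43*), 0.025 and 0.035 (*Nop2*) and 0.80 and 0.81 (*Sirt7*). With a liver left out, sign changes came with ranges of -0.13 to 0.15 (*Ubtf*), -0.14 to 0.33 (*Taf1a*), -0.48 to 0.12 (*Ddx21*), -0.34 to 0.11 (*Nop58*), -0.41 to 0.084 (*Utp15*), -0.14 to 0.24 (*Nat10*), -0.046 to 0.35 (*Ddx10*), -0.12 to 0.018 (*Nob1*), -0.19 to 0.12 (*Nop2*), -0.14 to 0.12 (*Nop56*), -0.30 to 0.10 (*Dkc1*), -0.39 to 0.19 (*Tsr1*), -0.10 to 0.40 (*Rrp12*), -0.10 to 0.028 (*Nop16*), -0.38 to 0.017 (*Bms1*) and -0.17 to 0.0074 (*Wdr12*). As levels per kilobase of annotated length, *Nop10* was 7.22 and *Polr1d* 5.84 times the median member, against 11.2 and 7.76 times in TPM.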
